A study of Homo sapiens with 9 samples.

Results

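The genes described here are the ligands and receptors of axon guidance: semaphorins with their plexin and neuropilin receptors, ephrins with Eph receptors, SLIT ligands with ROBO receptors, and netrins with DCC, neogenin and the UNC5 receptors. They were chosen by gene symbol among protein-coding genes, which gave 66 of the 31558 genes in the count table. The rule used no measured value, but earlier results of these data were known when it was set. The 66 members were 36 ligands and 30 receptors. By family they were 19 semaphorins, 9 plexins, 2 neuropilins, 5 ephrin-A and 3 ephrin-B ligands, 5 EPHA and 5 EPHB receptors, 3 SLIT ligands, 4 ROBO receptors, 6 netrins and 5 netrin receptors.

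These proteins were named for steering growing axons, but most also act between non-neuronal cells. Ligands are either secreted or held on the surface of a neighbouring cell, and the receptors mostly act on the actin cytoskeleton to pull back or extend the cell edge. In the gut, EPHB receptors and ephrin-B ligands are known for keeping crypt cells in position, and DCC was first named as a gene deleted in colorectal carcinoma.

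All 9 samples were HCT116, a human colorectal carcinoma (CRC) cell line, with 3 biological replicates in each of 3 groups. CRLM1-OE cells carried a plasmid overexpressing the long noncoding RNA CRLM1 (LINC01767), Ctrl cells carried the free plasmid, and Anti cells carried a plasmid with the antisense sequence of CRLM1. Every group was transfected, so none shows untreated cells, and the study used the 2 controls to find genes regulated by CRLM1. Polyadenylated RNA was sequenced, and total counts were between 33302292 and 44514692 per sample.

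The targeted RNA, under the clone name RP4-710M16.2, was counted 38704, 32751 and 35726 times in the CRLM1-OE samples, not once in Ctrl, and 1540 to 1951 times in Anti. The counts do not record from which strand the Anti reads came. The epithelial markers EPCAM, KRT8, KRT18, KRT19, CDH1, CLDN3, CLDN4 and CLDN7 were all present, with a summed level of 5160 to 5300 FPKM (fragments per kilobase of exon, scaled to the mapped fragments of each library) in CRLM1-OE, 5740 to 5790 in Ctrl and 4770 to 4830 in Anti. Of 8 colorectal markers, CDX2 was at 3.00 FPKM over the 9 samples, while CDX1, VIL1, CDH17, CEACAM5 and GPA33 were each at 0.07 FPKM or below. LGR5 had no FPKM value and ASCL2 no counts. The neuronal markers TUBB3 (34.4 FPKM), SYT1 (6.39 FPKM) and MAP2 (0.89 FPKM) were present, but SNAP25, STMN2, RBFOX3 and ELAVL4 were each at 0.03 FPKM or below. DCX had no FPKM value. The summed level of 7 fibroblast markers was 2.07 to 2.51 FPKM in CRLM1-OE, 1.19 to 1.28 in Ctrl and 1.27 to 1.44 in Anti. COL1A1 led it at 1.57 FPKM, with DCN, THY1 and COL3A1 at 0.00, and the part of these levels in the results below was not tested.

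In Ctrl, 7 members had a mean level of at least 10 FPKM, 24 lay from 1 to under 10, 16 from 0.1 to under 1 and 15 under 0.1, and 4 (SEMA5A, NTNG1, ROBO2 and DCC) had no entry in the FPKM table. EPHA2, the receptor best known for binding ephrin-A1, was the most abundant member in every group, at 140 ± 0.754 FPKM in Ctrl (mean ± SD, n = 3, as for all FPKM means below). SEMA4B (56.5 ± 0.385), PLXNB2 (32.7 ± 0.236), SEMA7A (20.4 ± 0.333), SEMA6B (15.1 ± 0.527), EPHB4 (12.9 ± 0.330) and SEMA3B (11.4 ± 0.567 FPKM) followed in Ctrl. In CRLM1-OE, SEMA7A stood in the second place, above SEMA4B and PLXNB2.

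The SLIT ligands were the lowest family, with a summed level of 0.13 ± 0.02 FPKM in Ctrl. The receptors that the SLIT and netrin ligands are best known to use were nearly undetected. DCC had 1 count in Ctrl replicate 2 and 0 in the other 8 samples, ROBO2 had 1 count in Anti replicate 3 alone, and ROBO1 had at most 2 counts in any sample. A gene at 0 could still hold up to 3 counts, or 0.06739 to 0.09008 CPM (counts scaled to library size) depending on the sample, counting error alone considered. In all, 53 members had a mean of at least 10 counts over the 9 samples, and 13 had fewer.

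**Figure D1:**
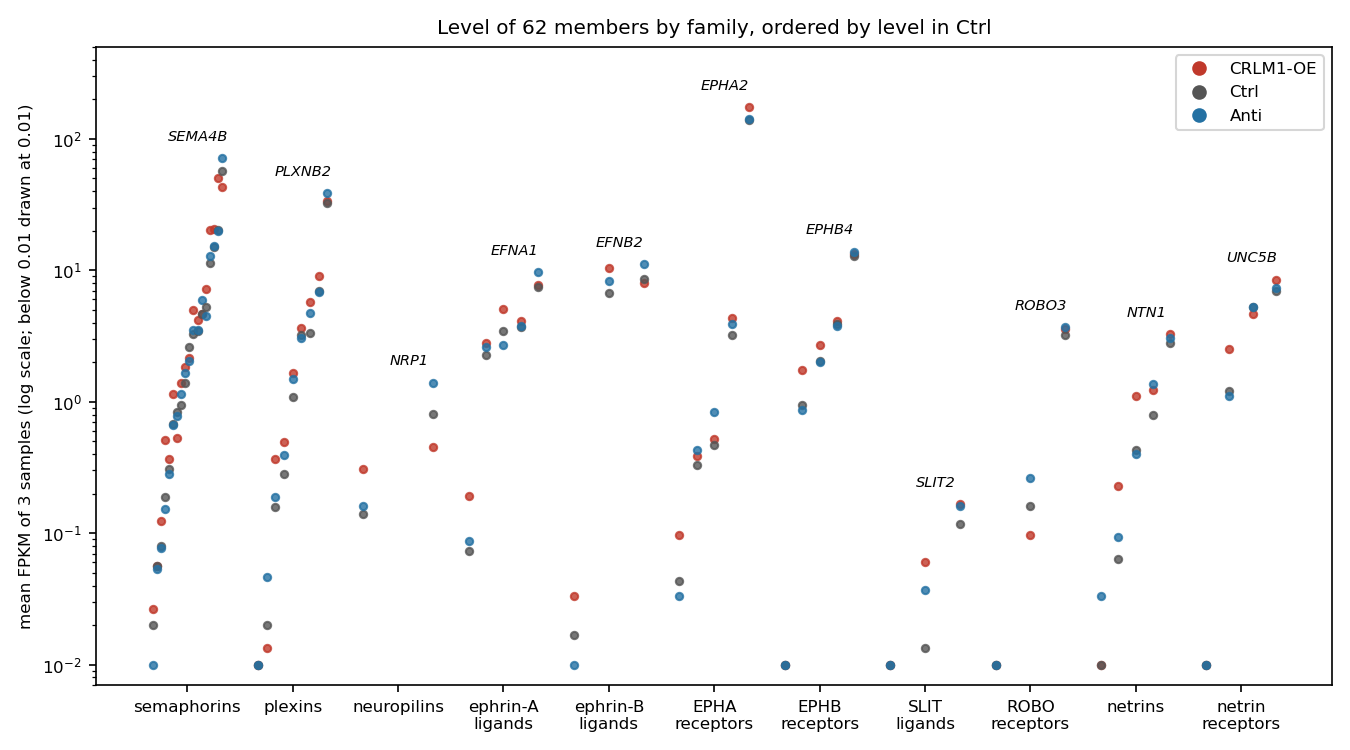
Mean FPKM (vertical, log scale) of the 62 members in the FPKM table, by family, with 1 dot per group (3 samples each) and members ordered by their Ctrl level. Values below 0.01 are drawn at 0.01 and the named gene is the highest of its family in Ctrl. EPHA2 stands highest, at 140 FPKM in Ctrl and 175 FPKM in CRLM1-OE.

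The first comparison asked which members differ between CRLM1-OE and the free plasmid. More members were higher than lower: of 64 tested, 30 rose, 8 fell and 26 did not pass an adjusted p of at most 0.05 (edgeR's quasi-likelihood test, Benjamini-Hochberg adjustment over all 29846 genes tested). This is 59.4% of the members, where 31.8% of all genes tested passed, 15.0% higher and 16.8% lower. Among protein-coding genes with a mean of at least 10 counts 63.3% passed, 28.2% higher and 35.1% lower. These expressed protein-coding genes leave out low counts, here and below, while the members tested include them, so the shares are of unlike sets. With edgeR's filter on low counts (filterByExpr), 53 members remained, of which 30 rose and 8 fell. The groups did not overlap for 41 members, 32 higher and 9 lower, where this held for 37.5% of all genes tested and 67.9% of the expressed protein-coding genes. Such counts of members were made on CPM with TMM factors over all 9 samples and can differ from the FPKM values printed below. The median log2 fold change of the members was 0.29, and 0.30 without the 3 members at 0 counts in a whole group, where the median was 0.02 over all genes tested and -0.03 over expressed protein-coding genes.

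The study's fold change threshold of 2, with the same adjusted p, was met by 9 members against Ctrl, all higher: the ligands SEMA7A, SEMA4A, EFNA5, SLIT1, NTN5 and NTNG2 and the receptors PLXNA2, NRP2 and EPHA8. Of all genes tested, 3.41% were called so, 2.5% higher and 0.915% lower, and of expressed protein-coding genes 3.68%, 2.69% higher. SEMA7A was the only one of the 9 with a level above 10 FPKM, and EPHA8 and SLIT1 had at most 25 counts in any sample. By role, 17 ligands rose and 4 fell among 35 tested (median log2 fold change 0.39), and 13 receptors rose and 4 fell among 29 (median 0.17). At this threshold of adjusted p alone, 31.8% of all genes tested and 63.3% of expressed protein-coding genes passed.

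Against Anti, 65 members were tested, 26 rose, 12 fell and 27 did not pass. This is 58.5% of the members beside 35.6% of all genes tested (17.1% higher, 18.5% lower) and 69.9% of expressed protein-coding genes (32.5% higher, 37.4% lower). The last share again leaves out genes with few counts, which the members include. With filterByExpr, 54 members remained, of which 28 rose and 12 fell. The median log2 fold change of the 65 members was 0.23, and 0.24 without the 5 members at 0 counts in a whole group, beside -0.02 over all genes. At 2-fold, 10 members were called. Of all genes 5.65% were called so, 3.09% higher and 2.56% lower, and of expressed protein-coding genes 6.73%, 3.53% higher. The members called were SEMA7A, SEMA4A, EFNA5, EPHA8, NTN5, NTNG2 and UNC5A higher, and NRP1, PLXNC1 and ROBO4 lower. The groups did not overlap for 43 members, 31 higher and 12 lower, beside 41.0% of all genes and 73.6% of expressed protein-coding genes.

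The 2 comparisons share the CRLM1-OE samples, so their results are given side by side and are not independent. Of the members tested in both, 24 were higher in CRLM1-OE than in either control and 7 were lower than in either (EFNB2, NEO1, NRP1, PLXNB2, ROBO4, SEMA3A and SEMA4B). The share of all genes that passed in the same direction against both controls was not computed, so these counts have no background beside them. Among expressed protein-coding genes, 28.2% were higher against Ctrl and 32.5% against Anti, and 35.1% and 37.4% were lower. EPHA1, NTN4, PLXNB1, PLXNB3, SEMA4D and SLIT1 were higher against Ctrl and did not pass against Anti, and SEMA6A was lower against Ctrl alone. PLXNA3 and SEMA3E were higher, and EFNA1, EPHA10, EPHB4, PLXNC1 and SEMA4C lower, against Anti alone. None of the members passed in opposite directions, and 18 passed in neither comparison. These 18 were EFNA2, EFNA4, EPHA4, EPHB2, NTN1, ROBO3, SEMA3D, SEMA3G and SLIT2, and SEMA5A, SEMA5B, EFNB3, EPHB1, SLIT3, ROBO1, NTN3, PLXNA4 and UNC5D with a mean under 10 counts. DCC, NTNG1 and ROBO2 had a single count in all each, so that DCC was tested against Ctrl alone and NTNG1 and ROBO2 against Anti alone.

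**Figure D2:**
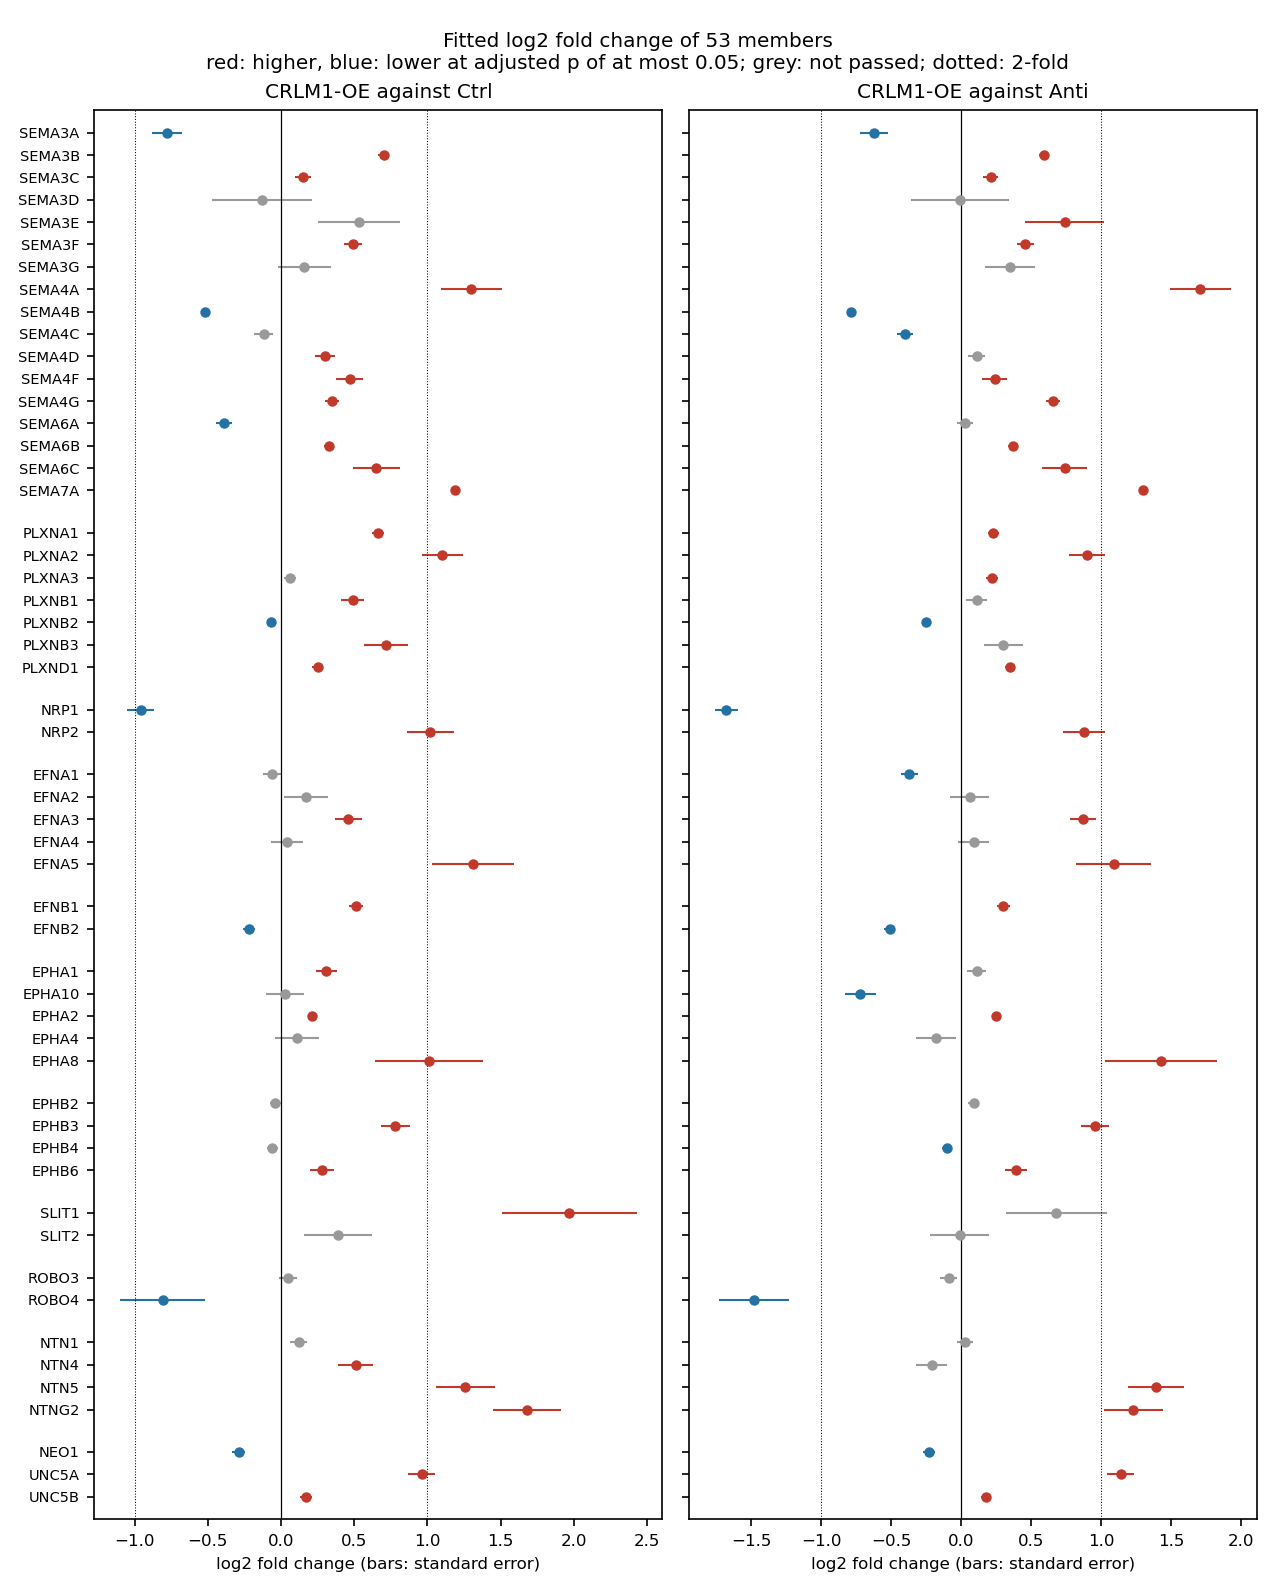
Fitted log2 fold change (horizontal; bars, standard error) of the 53 members with a mean of at least 10 counts, for CRLM1-OE against Ctrl (left) and against Anti (right). Red dots were higher and blue dots lower at an adjusted p of at most 0.05, grey dots did not pass, and dotted lines mark 2-fold. SEMA7A has a log2 fold change of 1.19 and 1.30, and NRP1 of -0.96 and -1.68.

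Among the semaphorins, the glycosylphosphatidylinositol-anchored SEMA7A showed the clearest rise. Its level was 50.9, 50.9 and 50.3 FPKM in CRLM1-OE, 20.8, 20.3 and 20.2 in Ctrl and 20.9, 19.5 and 19.3 in Anti. All CRLM1-OE samples lay far above both controls, which overlapped each other in FPKM. The fitted log2 fold change was 1.19 ± 0.028 (SE) against Ctrl, which is 2.29-fold, and 1.30 ± 0.026 against Anti (2.46-fold), both with an adjusted p of 1e-300 or less in edgeR's quasi-likelihood test. Plexin C1, the plexin that binds SEMA7A, was nearly undetected: PLXNC1 had 3 to 5 counts in CRLM1-OE, 3 to 11 in Ctrl and 12 to 19 in Anti. Its call against Anti (-2.00, adjusted p 0.00030) was lost with limma on FPKM (adjusted p 0.073).

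SEMA4B, a transmembrane semaphorin of class 4, moved the other way. It had 43.6, 43.1 and 41.7 FPKM in CRLM1-OE, 56.5, 56.1 and 56.8 in Ctrl and 71.6, 70.3 and 72.6 in Anti, so that the 3 groups did not overlap and Anti was highest. In log2 terms CRLM1-OE differed by -0.52 ± 0.025 (SE) against Ctrl (adjusted p 3.9e-89) and -0.79 ± 0.022 against Anti (3.9e-269), and Anti was itself above Ctrl by 0.25 ± 0.024 (7.5e-24).

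With these changes the order of the leading semaphorins changed. SEMA4B made up 44.4% of the summed semaphorin FPKM in Ctrl (SD 0.59, n = 3) and 49.7% in Anti (SD 0.63), but 26.2% in CRLM1-OE (SD 0.31). SEMA7A held 16.1%, 13.8% and 31.0% in the same order. The summed semaphorin level was 163 ± 1.82 FPKM in CRLM1-OE, against 127 ± 1.05 in Ctrl and 144 ± 1.75 in Anti. These sums and shares do not overlap between CRLM1-OE and either control, and with 3 samples against 3 an exact permutation test of a single value cannot give a two-sided p below 0.1.

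**Figure D3:**
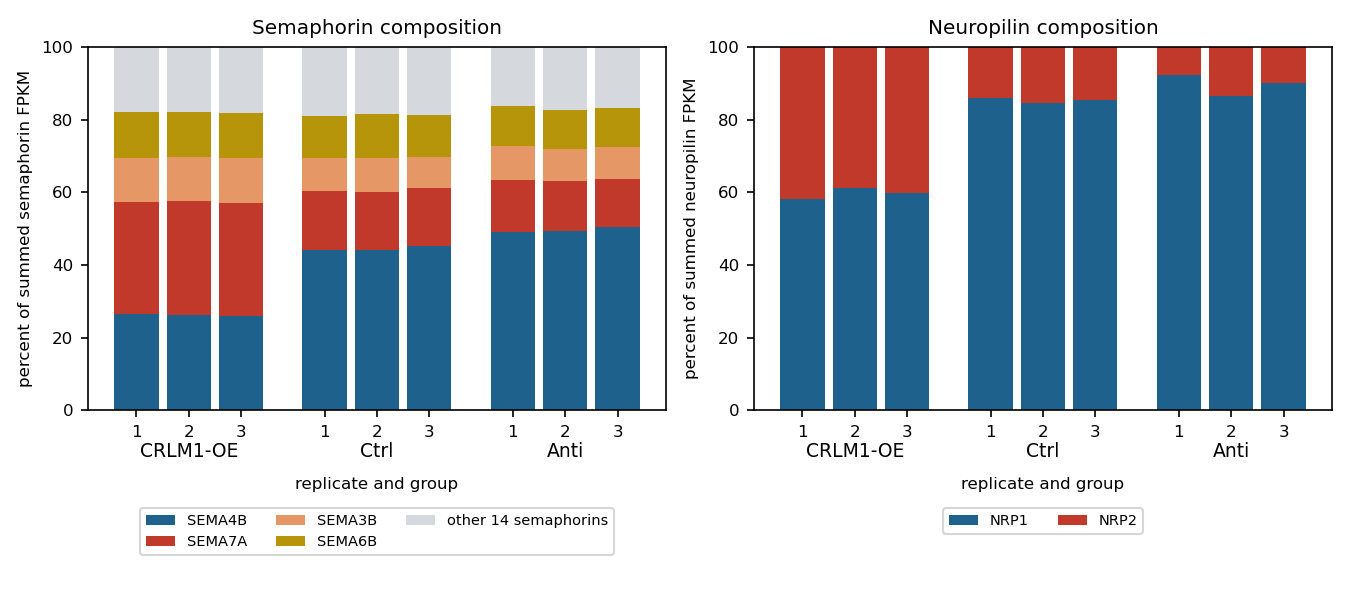
Percent of the summed semaphorin FPKM held by SEMA4B, SEMA7A, SEMA3B, SEMA6B and the other 14 semaphorins (left), and of the neuropilin FPKM held by NRP1 and NRP2 (right), in each of the 9 samples. SEMA7A takes 30.8% to 31.1% in CRLM1-OE and 13.4% to 16.3% in the controls, and NRP2 38.8% to 42.0% and 7.64% to 15.5%.

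SEMA4A, another class 4 semaphorin, was low but higher in every CRLM1-OE sample, at 0.60, 0.44 and 0.49 FPKM, than in Ctrl (0.28, 0.17 and 0.11) or Anti (0.13, 0.18 and 0.15). Its log2 fold change was 1.30 ± 0.21 (SE) against Ctrl (adjusted p 6.1e-09) and 1.71 ± 0.22 against Anti (1.4e-13). Of the other class 4 genes, SEMA4F and SEMA4G rose against both controls (28.05% of the SEMA4G exon bases lie opposite other genes, mainly MRPL43, so its reads are uncertain), SEMA4D, the ligand of plexin B1, rose against Ctrl alone (0.30), and SEMA4C fell against Anti alone (-0.40).

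The secreted class 3 semaphorins split. SEMA3B rose from 11.4 ± 0.567 FPKM in Ctrl and 12.9 ± 0.674 in Anti to 20.1 ± 0.156 in CRLM1-OE, with log2 fold changes of 0.70 and 0.59. SEMA3F rose to 4.97 ± 0.181 FPKM from 3.26 ± 0.163 and 3.51 ± 0.186, with log2 fold changes of 0.49 and 0.46. Both are known as candidate tumour suppressors of the short arm of chromosome 3, where 78.5 kb separate them in GENCODE version 44 on the same strand.

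SEMA3A, which repels cells through neuropilin 1 and A-type plexins, fell. Its level was 0.47, 0.52 and 0.59 FPKM in CRLM1-OE, below all Ctrl samples (0.87, 0.78 and 0.86) and all Anti samples (0.76, 0.80 and 0.79). It changed by a log2 fold change of -0.78 ± 0.10 (SE) against Ctrl (adjusted p 1.7e-13) and -0.62 ± 0.10 against Anti (9.9e-09). Its neighbours on chromosome 7, SEMA3E (306.6 kb away) and SEMA3D (502.8 kb), were low in every group, with at most 39 and 24 counts. SEMA3D passed in neither comparison and SEMA3E only against Anti (log2 fold change 0.74, adjusted p 0.027). SEMA3C rose slightly, with log2 fold changes of 0.15 and 0.21.

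Of class 6, which is transmembrane and binds A-type plexins, SEMA6B rose from 15.1 ± 0.527 FPKM in Ctrl to 20.6 ± 0.286 in CRLM1-OE (log2 fold change 0.33, and 0.37 against Anti), and SEMA6C rose by 0.65 and 0.74. SEMA6A was lower than Ctrl in both other groups, with log2 fold changes of -0.39 in CRLM1-OE and -0.44 in Anti, and CRLM1-OE and Anti did not pass against each other (0.03, adjusted p 0.72). The class 5 genes SEMA5A and SEMA5B had at most 10 counts in any sample.

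The plexins, the signalling receptors of the semaphorins, had 5 members higher and 1 lower against Ctrl among 9 tested. As given above, 31.8% of all genes tested and 63.3% of expressed protein-coding genes passed in this comparison. PLXNA2 was called at 2-fold: it had 0.37, 0.38 and 0.35 FPKM in CRLM1-OE, 0.18, 0.13 and 0.16 in Ctrl and 0.15, 0.20 and 0.22 in Anti. The 3 CRLM1-OE samples lay above all others, with a log2 fold change of 1.10 ± 0.14 (SE) against Ctrl (adjusted p 6.2e-14) and 0.90 ± 0.13 against Anti (1.4e-10).

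PLXNA1, a more abundant A-type plexin, was ordered by group, at 5.73 ± 0.335 FPKM in CRLM1-OE, 4.73 ± 0.1 in Anti and 3.35 ± 0.170 in Ctrl. It rose by a log2 fold change of 0.66 against Ctrl and 0.23 against Anti, and Anti was 0.41 above Ctrl. PLXND1, the receptor of SEMA3E, rose by 0.25 and 0.35. PLXNB1 and PLXNB3 rose against Ctrl (0.49 and 0.72) and did not pass against Anti. Of the exon bases of PLXNB3, 20.44% are shared with SRPK3 on the same strand, so its reads are uncertain.

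PLXNB2, the leading plexin, hardly moved. Its level was 33.9, 34.4 and 32.5 FPKM in CRLM1-OE, 32.9, 32.5 and 32.6 in Ctrl and 38.4, 38.8 and 38.9 in Anti. The log2 fold change against Ctrl was -0.07 ± 0.025 (SE, adjusted p 0.013), but it turned to 0.07 (adjusted p 0.020) when counts were scaled to library totals. It did not pass without CRLM1-OE replicate 3 (adjusted p 0.16), Ctrl replicate 2 (0.071) or Ctrl replicate 3 (0.12). Against Anti it was lower by every alternative (-0.25 ± 0.022, adjusted p 2.5e-28). Its share of the summed plexin FPKM was 61.7% in CRLM1-OE, against 68.4% in Ctrl and 69.8% in Anti.

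The neuropilins, coreceptors for class 3 semaphorins and for vascular endothelial growth factors, moved in opposite directions. NRP1 had 0.47, 0.49 and 0.40 FPKM in CRLM1-OE, 0.80, 0.82 and 0.82 in Ctrl and 1.45, 1.28 and 1.46 in Anti. The 3 groups did not overlap and were ordered CRLM1-OE, Ctrl, Anti. NRP1 changed by a log2 fold change of -0.96 ± 0.095 (SE) against Ctrl (adjusted p 4.7e-23), just short of 2-fold, and -1.68 ± 0.082 against Anti (8.1e-90), and Anti was above Ctrl by 0.69 ± 0.074 (4.1e-19).

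NRP2, the coreceptor preferred by SEMA3F, was lower in level than NRP1 and rose. It had 0.34, 0.31 and 0.27 FPKM in CRLM1-OE, 0.13, 0.15 and 0.14 in Ctrl and 0.12, 0.20 and 0.16 in Anti, with every CRLM1-OE sample above both controls. The log2 fold change was 1.02 ± 0.16 (SE) against Ctrl (adjusted p 6.1e-10) and 0.88 ± 0.15 against Anti (3.4e-08). With a sample left out it ranged from 0.94 to 1.10 against Ctrl, so the 2-fold threshold was not always met. NRP2 thus made up 40.3% of the neuropilin FPKM in CRLM1-OE (SD 1.6, n = 3), 14.7% in Ctrl (SD 0.75) and 10.3% in Anti (SD 3.0). Of the exon bases of NRP1, 4.87% lie opposite a long noncoding RNA, and whether strand was used in counting is not given in the sources used here.

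**Figure D4:**
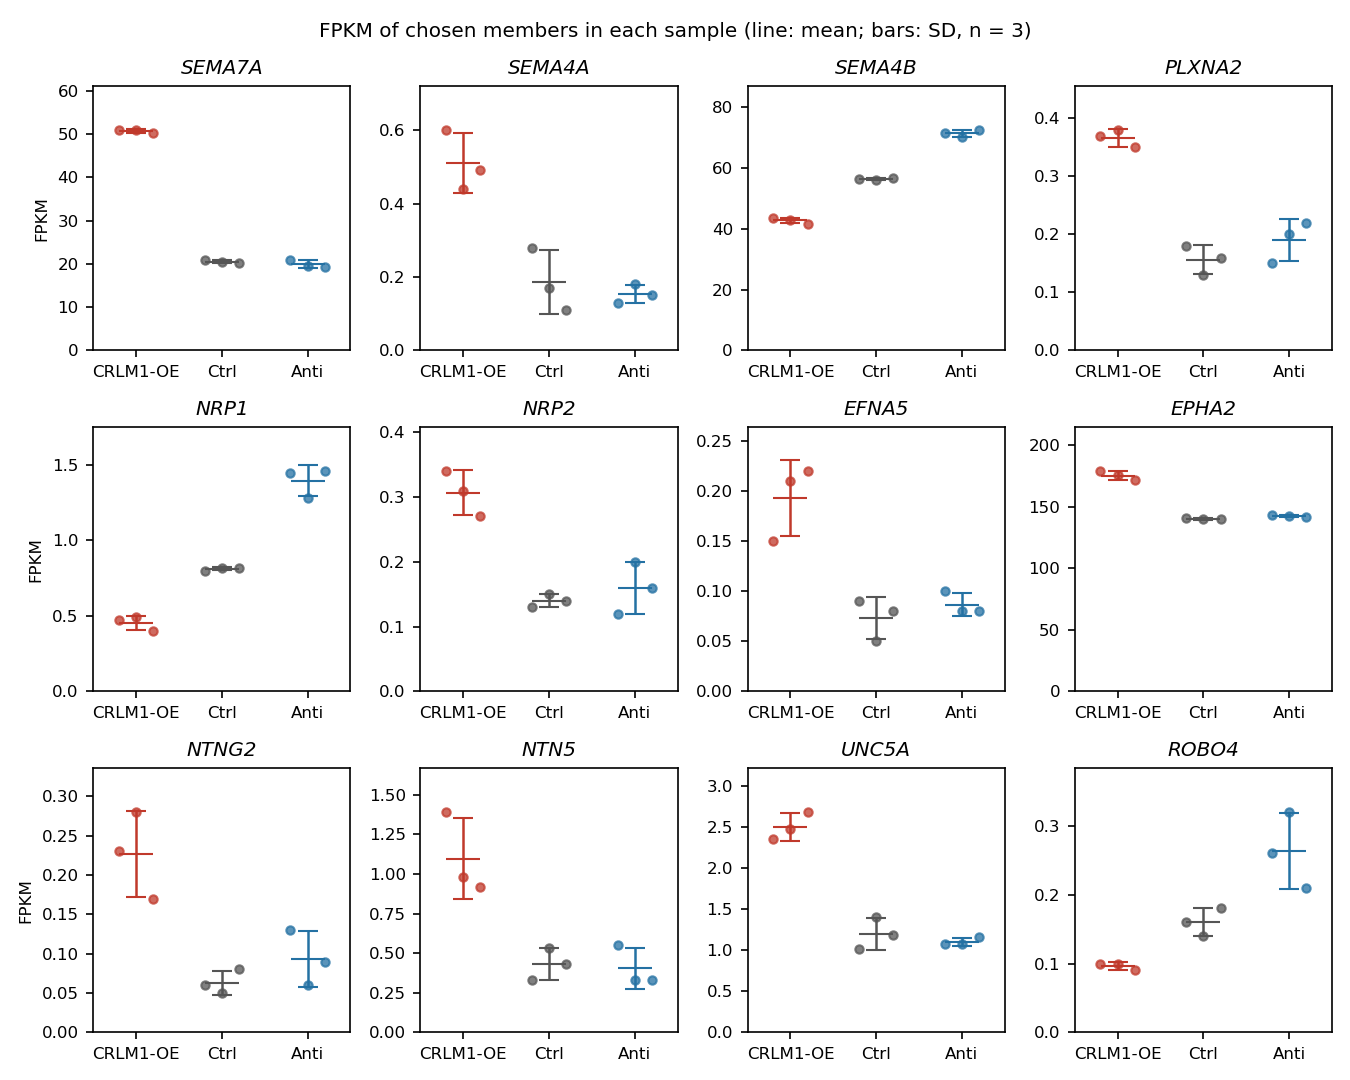
FPKM (vertical, from 0) of 12 members in each of the 9 samples, with the mean (line) and SD (bars, n = 3) of each group. CRLM1-OE samples lie above both controls for SEMA7A, SEMA4A, PLXNA2, NRP2, EFNA5, EPHA2, NTNG2, NTN5 and UNC5A, and below both for SEMA4B, NRP1 and ROBO4.

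The promoters of 2 semaphorins that moved in opposite directions, 1 plexin and 1 ephrin that rose are shown to compare what stands before members that changed. Each is the 250 bases before a transcription start annotated by RefSeq (GRCh38.p14), written 5′ to 3′ on the strand of the gene, and none holds an exon base of GENCODE version 44. SEMA7A has 2 such starts and SEMA4B 3, of which the first in the RefSeq table is shown. The SEMA4B window lies inside the gene as GENCODE annotates it (90160604 to 90229679 on chromosome 15), before an internal start. Which start these cells use was not tested. Capitals mark matches on either strand to GGGCGG (GC box), CCCTCCC (CT element), GAANNTTC (heat-shock element) or TGACNNNGC (antioxidant response element), where neighbouring matches can overlap.

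SEMA7A (chr15:74433959-74434208, reverse strand): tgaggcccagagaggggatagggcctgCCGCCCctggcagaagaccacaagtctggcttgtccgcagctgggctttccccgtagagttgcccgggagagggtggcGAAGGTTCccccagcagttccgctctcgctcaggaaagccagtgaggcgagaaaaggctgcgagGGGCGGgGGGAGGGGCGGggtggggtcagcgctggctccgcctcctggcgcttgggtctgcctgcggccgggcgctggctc
SEMA4B (chr15:90201080-90201329, forward strand): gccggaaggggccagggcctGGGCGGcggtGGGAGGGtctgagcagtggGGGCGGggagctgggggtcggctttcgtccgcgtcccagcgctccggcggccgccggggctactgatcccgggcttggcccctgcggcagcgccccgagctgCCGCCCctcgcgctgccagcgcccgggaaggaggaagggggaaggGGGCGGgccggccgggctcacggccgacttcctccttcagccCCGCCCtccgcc
PLXNA2 (chr1:208244385-208244634, reverse strand): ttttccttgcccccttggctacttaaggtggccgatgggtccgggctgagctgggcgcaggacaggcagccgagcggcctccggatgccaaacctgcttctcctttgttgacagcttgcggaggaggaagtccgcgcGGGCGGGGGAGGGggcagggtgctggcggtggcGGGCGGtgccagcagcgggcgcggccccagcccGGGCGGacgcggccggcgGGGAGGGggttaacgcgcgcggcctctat
EFNA5 (chr5:107670938-107671187, reverse strand): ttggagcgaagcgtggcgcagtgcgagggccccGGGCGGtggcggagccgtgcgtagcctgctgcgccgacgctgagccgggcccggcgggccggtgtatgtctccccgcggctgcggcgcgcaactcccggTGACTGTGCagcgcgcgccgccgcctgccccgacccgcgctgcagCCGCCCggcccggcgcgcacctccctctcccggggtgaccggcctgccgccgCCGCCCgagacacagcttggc

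All 4 windows held 3 or more GC boxes, SEMA4B with 5 the most. A CT element, the sequence known to be bound by hnRNPK, stood in the SEMA7A, SEMA4B and PLXNA2 windows and not in that of EFNA5. The other SEMA7A start and the other 2 SEMA4B starts had 0 CT elements, so these matches belong to the windows shown. Over all members, 55 of 66 had 1 or more RefSeq starts, 83 in all. The GC box was found in 72.3% of these 83 windows and in 42.6% of the 35116 windows of all genes, and the CT element in 41.0% and 24.7%. TATAAA was found in 2.4% and 10.7%, CCAAT in 30.1% and 32.0%, and the AP-1 site TGANTCA in 1.2% and 6.6%. The heat-shock element was found in 6.0% and 5.8%, and the antioxidant response element in 7.2% and 10.9%. The members' windows were richer in G and C, with a median of 65.2% beside 58.0%. These matches describe letters in a window and say nothing about binding.

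Ephrin-A ligands, which are anchored in the membrane by a lipid, had 2 members higher against Ctrl and 3 that did not pass. The share that passed there was 31.8% of all genes tested and 63.3% of expressed protein-coding genes. EFNA5 was called at 2-fold against both controls, at 0.15, 0.21 and 0.22 FPKM in CRLM1-OE, 0.09, 0.05 and 0.08 in Ctrl and 0.10, 0.08 and 0.08 in Anti. The CRLM1-OE samples lay above all control samples, although the gene had at most 51 counts in a sample. EFNA5 thereby rose by a log2 fold change of 1.31 ± 0.28 (SE) against Ctrl (adjusted p 1.9e-05) and 1.09 ± 0.27 against Anti (0.00020).

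EFNA1, the leading ephrin-A and a ligand of EPHA2, had 7.26, 8.30 and 7.75 FPKM in CRLM1-OE, 8.07, 6.82 and 7.47 in Ctrl and 9.38, 9.26 and 10.45 in Anti. CRLM1-OE overlapped Ctrl, and the sign of its log2 fold change depended on the scaling (-0.06 with TMM factors, adjusted p 0.56, and 0.08 with library totals). Against Anti it was lower (-0.37 ± 0.062, adjusted p 1.4e-08). EFNA3 rose by 0.46 against Ctrl and 0.87 against Anti, but 43.88% of its exon bases and 15.04% of those of EFNA4 are shared with the readthrough gene EFNA4-EFNA3. EFNA4, EFNA3 and EFNA1 lie in a row on chromosome 1, separated by 9.3 and 40.3 kb, and of these neighbours only EFNA3 passed against Ctrl.

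The transmembrane ephrins EFNB1 and EFNB2 changed places. EFNB1 had 10.4, 10.3 and 10.8 FPKM in CRLM1-OE, 6.90, 6.53 and 6.92 in Ctrl and 8.19, 7.83 and 8.79 in Anti, and EFNB2 had 7.97, 8.21 and 7.91, then 9.09, 8.30 and 8.56, then 11.1, 11.0 and 11.1. EFNB1 made up 56.6% of their sum in CRLM1-OE (SD 1.0, n = 3), 44.0% in Ctrl (SD 0.78) and 42.7% in Anti (SD 1.3). EFNB1 rose by a log2 fold change of 0.51 ± 0.048 (SE) against Ctrl (adjusted p 4.5e-25) and 0.30 ± 0.046 against Anti (3.9e-10). EFNB2 fell by 0.22 on the log2 scale against Ctrl (adjusted p 1.2e-06) and by 0.51 against Anti (2.6e-36). Against Ctrl, EFNB2 did not pass when scaled to library totals (-0.08, adjusted p 0.14). Nor did it pass with limma on FPKM, with a pseudocount of 0.1 (-0.11, adjusted p 0.11), of 1 (-0.10, 0.11) or after the FPKM filter (-0.11, 0.073). Of its exon bases, 36.4% lie opposite a long noncoding RNA, so its reads are uncertain too.

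Among the Eph receptors, which are receptor tyrosine kinases, EPHA2 held 84.7% to 86.5% of the summed FPKM as a mean of each group. It had 179, 176 and 171 FPKM in CRLM1-OE, 141, 139.6 and 140.1 in Ctrl and 143, 142 and 141 in Anti, with every CRLM1-OE sample above both controls. With TMM factors the rise was small, with a log2 fold change of 0.21 ± 0.020 (SE) against Ctrl (adjusted p 3.3e-23) and 0.25 ± 0.018 against Anti (6.7e-46). FPKM is scaled to the mapped fragments of each library instead. The difference between Anti and Ctrl was smaller still and changed sign with the scaling (-0.07 with TMM factors, 0.04 with library totals).

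EPHA8 had 20, 22 and 23 counts in CRLM1-OE, 15, 4 and 11 in Ctrl and 7, 9 and 7 in Anti, and was called at 2-fold against both controls (log2 fold change 1.01 ± 0.37, adjusted p 0.022, and 1.43 ± 0.40, adjusted p 0.0011). The call against Ctrl was lost without CRLM1-OE replicate 2 (adjusted p 0.082), CRLM1-OE replicate 3 (0.057) or Ctrl replicate 2 (0.21, log2 fold change 0.68). EPHA10, which lacks kinase activity, was at 0.833 ± 0.0737 FPKM in Anti, above 0.520 ± 0.0520 in CRLM1-OE and 0.473 ± 0.0404 in Ctrl. It was lower in CRLM1-OE than in Anti (-0.72, adjusted p 8.2e-10) and did not pass against Ctrl (0.03, adjusted p 0.89).

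Of the EPHB receptors, EPHB3 had 1.86, 1.62 and 1.72 FPKM in CRLM1-OE and 0.80 to 1.01 in the 6 control samples. It rose by a log2 fold change of 0.78 ± 0.10 (SE) against Ctrl (adjusted p 3.2e-13) and 0.96 ± 0.10 against Anti (3.0e-19). EPHB6, without kinase activity, rose by 0.28 and 0.39. EPHB2, which acts with EPHB3 in crypt cells, had 3.98 to 4.18 FPKM in CRLM1-OE and 3.66 to 4.02 in the controls and passed against neither (-0.04, adjusted p 0.56, and 0.09, adjusted p 0.058). EPHB4, the receptor of EFNB2 and the leading EPHB gene, lay between 12.6 and 14.1 FPKM in all 9 samples. Its log2 fold change against Ctrl was -0.06 (adjusted p 0.26) and turned to 0.08 with library totals. Against Anti it was -0.10 ± 0.034 (adjusted p 0.015). It did not pass without CRLM1-OE replicate 2 (0.16), CRLM1-OE replicate 3 (0.095) or Anti replicate 2 (0.15), with library totals (0.46) or with DESeq2 (0.079).

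The SLIT ligands were near the limit of detection. SLIT1 had 18, 25 and 17 counts in CRLM1-OE, 4, 2 and 8 in Ctrl and 8, 23 and 5 in Anti, so that CRLM1-OE stood above Ctrl and overlapped Anti through Anti replicate 2. Its log2 fold change was 1.97 ± 0.46 (SE) against Ctrl (adjusted p 9.1e-05), and 2.68 without Ctrl replicate 3. Against Anti it was 0.68 (adjusted p 0.15), and with a sample left out it ranged from 0.35 to 1.57, passing only without Anti replicate 2 (1.57, adjusted p 0.0030). SLIT2 had 64, 38 and 44 counts in CRLM1-OE, 27 to 41 in Ctrl and 46 to 47 in Anti, and passed in no comparison.

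Of the ROBO receptors, ROBO3 was the only one above 1 FPKM, at 3.58 ± 0.216 in CRLM1-OE, against 3.20 ± 0.150 in Ctrl and 3.71 ± 0.130 in Anti, and it passed in no comparison with TMM factors. With library totals ROBO3 passed against Ctrl (0.19, adjusted p 0.0060) and between Anti and Ctrl (0.23, adjusted p 0.0013). ROBO4, known from endothelial cells, lies tail to tail with it on chromosome 11, 2.2 kb away. It had 0.10, 0.10 and 0.09 FPKM in CRLM1-OE, 0.16, 0.14 and 0.18 in Ctrl and 0.26, 0.32 and 0.21 in Anti, in the same order of groups as NRP1. Its log2 fold change was -0.81 ± 0.29 (SE) against Ctrl (adjusted p 0.018, and 0.080 without Ctrl replicate 3) and -1.48 ± 0.25 against Anti (2.9e-08). The endothelial markers PECAM1, CDH5, VWF, KDR and TEK summed to between 0.07 and 0.14 FPKM in all samples. Of the exon bases of ROBO4, 18.01% are shared with long noncoding RNAs on the opposite strand.

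Netrins are laminin-related guidance proteins, and NTN4, NTN5 and NTNG2 rose against Ctrl. NTN1, the best known, had 3.26 ± 0.140 FPKM in CRLM1-OE, against 2.78 ± 0.130 in Ctrl and 3.08 ± 0.0757 in Anti and did not pass against either control (0.12, adjusted p 0.15, and 0.03, adjusted p 0.71), although with library totals it passed against Ctrl (0.26, adjusted p 0.00010). NTNG2, a netrin-G that is held on the membrane, had 83, 80 and 55 counts in CRLM1-OE, 23, 16 and 24 in Ctrl and 44, 19 and 26 in Anti. Every CRLM1-OE sample was above both controls, and the log2 fold change was 1.68 ± 0.23 (SE) against Ctrl (adjusted p 4.8e-12) and 1.23 ± 0.21 against Anti (5.1e-08).

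NTN5 had 1.39, 0.98 and 0.92 FPKM in CRLM1-OE, 0.33, 0.53 and 0.43 in Ctrl and 0.55, 0.33 and 0.33 in Anti. The CRLM1-OE samples again lay above both controls, replicate 1 the farthest, with log2 fold changes of 1.26 ± 0.20 (SE, adjusted p 3.6e-09) and 1.39 ± 0.20 (6.2e-11). NTN4 was higher than Ctrl in both other groups, by 0.51 in CRLM1-OE and 0.69 in Anti, and CRLM1-OE and Anti did not pass against each other (-0.21, adjusted p 0.14).

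The netrin receptors present were UNC5B, NEO1 and UNC5A, with DCC and UNC5D at no more than 2 counts. UNC5A and UNC5B are dependence receptors, which are known to signal for apoptosis when no netrin is bound. UNC5A had 2.35, 2.47 and 2.68 FPKM in CRLM1-OE, 1.01, 1.40 and 1.18 in Ctrl and 1.08, 1.07 and 1.16 in Anti. The CRLM1-OE samples were all well above the controls, with a log2 fold change of 0.96 ± 0.095 (SE) against Ctrl (1.95-fold, adjusted p 6.1e-23) and 1.14 ± 0.096 against Anti (2.20-fold, 2.4e-31).

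UNC5B, the more abundant of the pair, had 8.65, 8.27 and 8.60 FPKM in CRLM1-OE and 6.65 to 7.35 in the controls. It rose by a log2 fold change of 0.17 ± 0.038 (SE) against Ctrl (adjusted p 3.2e-05) and 0.18 ± 0.036 against Anti (3.9e-06). UNC5A thus made up 22.7% of their sum in CRLM1-OE (SD 1.2, n = 3), 14.7% in Ctrl (SD 2.6) and 13.1% in Anti (SD 0.51). NEO1, which binds netrins and the repulsive guidance molecules, had 4.74, 4.58 and 4.6 FPKM in CRLM1-OE, below the 5.12 to 5.42 of all control samples, and fell by 0.29 and 0.23 on the log2 scale (adjusted p 2.9e-10 and 2.3e-07).

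The third comparison set the antisense plasmid against the free plasmid, to show how far the 2 controls differ from each other. Of 66 members tested, 13 were higher in Anti, 8 were lower and 45 did not pass. This is 31.8% of the members beside 23.7% of all genes tested (11.5% higher, 12.2% lower) and 48.6% of expressed protein-coding genes, which leave out low counts. With filterByExpr, 52 members remained, of which 15 were higher and 8 lower. None of the 66 was called at 2-fold by edgeR's quasi-likelihood test, where 1.06% of all genes tested were called so. In the same test 29 members had an unadjusted p of at most 0.05. This held for 8840 of all 29714 genes tested and for 7516 of 13079 expressed protein-coding genes. The median log2 fold change was 0.04, beside 0.00 over all genes. The groups did not overlap for 31 members, beside 31.0% of all genes and 56.5% of expressed protein-coding genes.

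The members higher in Anti were EFNA1, EFNB1, EFNB2, NTN4, SEMA4B and SEMA4C among ligands and EPHA10, NRP1, PLXNA1, PLXNB1, PLXNB2, PLXNB3 and ROBO4 among receptors. EPHA10 (0.73), NRP1 (0.69), NTN4 (0.69) and ROBO4 (0.64) had the largest log2 fold changes of these. ROBO4 did not pass with DESeq2 (adjusted p 0.092), or without Ctrl replicate 1 (0.052), Ctrl replicate 2 (0.074) or Anti replicate 2 (0.20). Those lower in Anti were EFNA3, SEMA4G, SEMA6A and SEMA7A and the receptors EPHA2, EPHB2, PLXNA3 and PLXND1, with log2 fold changes from -0.07 for EPHA2 to -0.44 for SEMA6A. SEMA7A, the member with the clearest rise in CRLM1-OE, differed little between the controls (-0.13 ± 0.032, adjusted p 0.00034, and -0.03, adjusted p 0.61, with library totals).

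Genes that act with the members were taken from lists of the pathway. Among partners outside the symbol rule, such as other ligands, coreceptors and adhesion molecules, 12 of 16 had counts against Ctrl, and 6 were higher, 2 lower and 4 did not pass. In that comparison 31.8% of all genes tested and 63.3% of expressed protein-coding genes passed. L1CAM, an adhesion molecule that forms a complex with NRP1, rose from 6.22 ± 0.309 FPKM in Ctrl and 6.05 ± 0.0436 in Anti to 10.8 ± 0.380 in CRLM1-OE (log2 fold change 0.68 and 0.78). RGMA, a ligand of NEO1, rose by 0.84 and 0.74. MET, a receptor tyrosine kinase that associates with B-type plexins, fell from 27.2 ± 1.16 FPKM in Ctrl and 28.7 ± 0.597 in Anti to 17.5 ± 0.579 (-0.75 and -0.76).

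At 2-fold, the partners called against Ctrl were BMPR1B alone, with 0 counts in CRLM1-OE and 7, 0 and 2 in Ctrl. Against Anti they were CXCR4 (1.31), FLRT1 (-2.35, with 1, 9 and 7 counts in CRLM1-OE and 29, 32 and 24 in Anti) and NRCAM, with 0 counts in CRLM1-OE and 6, 6 and 2 in Anti. Of all genes tested, 3.41% were called so against Ctrl and 5.65% against Anti. CXCR4, the chemokine receptor of CXCL12, had 1.49 ± 0.261 FPKM in CRLM1-OE, against 0.990 ± 0.165 in Ctrl and 0.590 ± 0.148 in Anti.

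Cytoplasmic signalling genes of these pathways were about evenly split. Of 66 tested, 24 were higher and 22 lower against Ctrl and 29 and 22 against Anti, with medians of 0.04 and -0.01. As given above, 63.3% and 69.9% of expressed protein-coding genes passed in these comparisons. RND1, a small GTPase that binds plexins, rose from 1.70 ± 0.0569 FPKM in Ctrl and 1.66 ± 0.0757 in Anti to 4.05 ± 0.120 in CRLM1-OE (1.14 ± 0.11, adjusted p 7.1e-23, and 1.24 ± 0.11, adjusted p 4.0e-27). TIAM2, an exchange factor for RAC1, rose by 1.00 and 1.09, and RRAS, a GTPase acted on by plexins, was called at 2-fold against Anti (1.00, with 210 ± 0.812 FPKM in CRLM1-OE, against 141 ± 2.76 in Ctrl and 101 ± 2.25 in Anti). MICAL3 was the third largest of the changes that passed against Ctrl (0.71).

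The proteases that shed guidance receptors or cut them in the membrane had more members lower than higher. Of 9 tested against Ctrl, 1 was higher, 6 were lower and 2 did not pass, and against Anti 0 were higher and 5 lower, with medians of -0.21 and -0.20. Of expressed protein-coding genes, 35.1% and 37.4% were lower in these comparisons. ADAM17 fell from 9.74 ± 0.256 FPKM in Ctrl and 12 ± 0.590 in Anti to 7.11 ± 0.145 (-0.57 and -0.80). ADAM10, which cuts ephrin-A and Eph proteins, fell by 0.42 and 0.56 on the log2 scale, and APH1A, a subunit of gamma-secretase, by 0.47 and 0.33.

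Fitted fold changes rest on TMM factors (trimmed mean of M-values), which scale libraries on genes that differ little. With library totals in their place, the median of all genes tested moved from 0.017 to 0.157 for CRLM1-OE against Ctrl and from 0.005 to 0.109 for Anti against Ctrl, and that of the members from 0.29 to 0.43 and from 0.04 to 0.14. The signs for PLXNB2, EFNA1 and EPHB4 against Ctrl follow that choice. In bulk samples, fewer cells that express a gene and less RNA per cell cannot be told apart.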

How the data were processed

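RNA from 9 HCT116 samples was measured by RNA-seq, with 3 biological replicates in each of 3 groups. The authors trimmed reads, aligned them to GRCh38 with GENCODE annotation by TopHat2 and counted uniquely mapped reads per gene, and these raw counts were deposited. The authors also deposited FPKM values for the same genes, scaled by gene length and library size and rounded to 2 decimals. Whether the counting used strand, how read pairs were counted and which rule left genes out of the FPKM table are not given in the sources used here.

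Members and gene lists were chosen with earlier results of these data known. Counts were tested with edgeR 4.0.16 (glmQLFit and glmQLFTest, TMM factors) in R 4.3.3, on the 6 samples of each comparison and every gene with at least 1 count, with no covariate. P-values were two-sided and were adjusted over all genes tested by the Benjamini-Hochberg method. A member passed at an adjusted p of at most 0.05 and counted as called at 2-fold if it also differed 2-fold or more. A call said to be lost or gained under an alternative refers to the adjusted p threshold alone. Replicates were labelled biological, with no word on separate passages, so the p-values measure the spread between these samples. Named members were those called at 2-fold in any comparison, the most abundant of each family, and the 10 with the largest passing change against Ctrl that had the same sign against Anti and a mean of at least 10 counts. For the lists of other pathway genes, those called in CRLM1-OE and the 3 largest passing changes against Ctrl were named. Other members are described by family with their values.

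The deposited FPKM values gave levels, shares and, on log2(FPKM + 0.1), an alternative test with limma 3.58.1. Other alternatives were DESeq2 1.42.0, other scalings, filters on low values, a fit over all 9 samples, a replicate block and leaving out each sample. The count test was tested on simulated data before use. Total counts of 33302292 to 44514692 per sample set the precision. Gene positions and overlaps were from GENCODE version 44 on GRCh38, and promoters from RefSeq on GRCh38.p14. Python 3.11.15, pandas 2.3.3 and matplotlib 3.10.9 were used.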

Additional observations from a re-analysis of the deposited data

How the results depend on the processing

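Most results kept their direction and their side of the threshold. Over 69 results of named members, 985 of 1081 values under alternatives did so, 40 lost and 21 gained the call in the same direction, and 35 changed sign. For CRLM1-OE against Ctrl, 5 members were lower with library totals, 5 with limma on log2(FPKM + 0.1) and 5 with limma on genes of at least 0.1 FPKM, instead of 8, and 6 to 8 when a sample was left out. Members called at 2-fold were 4 with limma on log2(FPKM + 0.1), 1 with log2(FPKM + 1) and 4 with the FPKM filter instead of 9, and 8 to 10 with a sample left out. The pseudocount shrinks the change of low genes by construction. The median was 0.43 with library totals, 0.13 with log2(FPKM + 1), 0.34 with the FPKM filter and 0.25 to 0.34 with a sample left out, instead of 0.29. For CRLM1-OE against Anti, it was 0.29 with library totals, 0.10 with log2(FPKM + 1) and 0.20 to 0.26 with a sample left out, instead of 0.23. Calls at 2-fold there were 5, 1 and 5 under the 3 limma settings instead of 10, and 9 to 12 with a sample left out. For Anti against Ctrl, library totals gave 22 higher, 3 lower, 1 called at 2-fold and a median of 0.14, instead of 13, 8, 0 and 0.04. The limma settings gave 3 lower, with medians of 0.10 and, after the FPKM filter, 0.11. The median was 0.08 with filterByExpr and 0.07 with at least 10 counts in every sample, and 1 member was called with all 9 samples fitted. With a sample left out, 11 to 14 were higher, 7 to 9 lower, 0 to 1 called, and the median was -0.03 to 0.09.

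The changes of sign were as follows. Under library totals, then limma with a pseudocount of 0.1, of 1 and with the filter, EFNA1 against Ctrl was 0.08, 0.06, 0.05 and 0.06, and -0.11 to 0.01 with a sample left out. EPHB4 against Ctrl was 0.08 and then 0.05 in each, and PLXNB2 0.07 and then 0.04 in each. SLIT2 against Anti was 0.05, 0.03, 0.01 and 0.03, 0.00 with at least 10 counts in every sample, and -0.17 to 0.07 with a sample left out. Between Anti and Ctrl, EPHA2 was 0.04 and then 0.02, and UNC5B 0.08 and then 0.06, with -0.05 to 0.00 for UNC5B when a sample was left out. Leaving out a sample also gave -0.00 to 0.04 for EPHB4, -0.08 to 0.30 for NRP2, -0.46 to 0.04 for NTN5 and -0.68 to 0.02 for SEMA4A. The cause was not tested for these. ROBO4 lost its call against Ctrl with library totals (adjusted p 0.061), DESeq2 (0.072) and limma with a pseudocount of 0.1 (0.12), and EPHA8 with DESeq2 (0.097) and limma (0.097 and 0.055). ROBO4 between Anti and Ctrl lost it with DESeq2 (0.092), the 3 limma settings (0.15, 0.085 and 0.11) and without Ctrl replicate 1, Ctrl replicate 2 or Anti replicate 2. PLXNC1 against Anti lost it with limma (0.073 with either pseudocount). NTN1 gained a call against Ctrl with library totals (0.26), at least 10 counts in every sample (0.14) and limma (0.22, 0.17 and 0.22), and ROBO3 with library totals against Ctrl (0.19), and between Anti and Ctrl with library totals (0.23) and limma (0.21, 0.17 and 0.21). SLIT1 gained a call between Anti and Ctrl without Ctrl replicate 3 (1.97, adjusted p 0.015), Anti replicate 1 (1.52) or Anti replicate 3 (1.60), and PLXNC1 without Ctrl replicate 2 (1.37, adjusted p 0.038). The replicate numbers did not pair the samples, with correlations of -0.0749 to 0.0782 between same-numbered samples. A replicate block changed no call of a named member and left 30 members higher and 8 lower against Ctrl.

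Depth limits 13 members with a mean under 10 counts. PLXNC1 passed against Anti in the count tests, and for the other 12 no difference was detectable at this depth.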
